A study of Saccharomyces cerevisiae with 88 samples.

Results

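The transcriptional response to glucose deprivation was followed by RNA polymerase II (Pol II) CRAC in Saccharomyces cerevisiae cells treated to remove the termination factor Nab3 from the nucleus before the shift. The libraries were chosen by their labels as those of the Nab3-FRB strain with rapamycin in time-courses 1 and 2, and the last libraries were set against the first libraries of the same culture. The late libraries were labelled 18, 28 and 40 min in time-course 1 and 14, 20 and 40 min in time-course 2. The early libraries were labelled 0, 1 and 2 min in each. These are 12 libraries (6 late and 6 early) of the 16 rapamycin libraries, in a series of 88 samples. The remaining 4 rapamycin libraries, labelled 4 and 10 min in time-course 1 and 4 and 8 min in time-course 2, served to describe the kinetics.

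All 12 libraries came from one genotype, an anchor-away strain (HHY168, MATalpha) with HTP-tagged Rpo21 (the large Pol II subunit) and Nab3 fused to the FRB domain. The strain background carries the tor1-1 allele, fpr1::NAT and RPL13A-2xFKBP12::TRP, so that rapamycin ties Nab3-FRB to the anchor and takes it out of the nucleus while the cells resist the drug's own effect. Rapamycin was added to the glucose medium 1 h before the shift and was also present in the medium lacking glucose. The early libraries therefore already came from rapamycin-treated cells, and late against early measured the change in treated cells after the shift. No treated culture of this strain was returned to glucose, so glucose removal, filtration and longer exposure to rapamycin cannot be told apart. Ethanol, the solvent of rapamycin, was given to the control cultures of the same strain, and a strain with untagged Nab3 was also sampled. Each time-course was 1 culture, so the replicates of the response are 2 cultures. The p-values rest on the spread between these, which the fit pooled in large part over all features. Many genes therefore have a standard error (SE) near 0.27, and a p-value says little about a gene's own spread. No library measures how well Nab3 was removed, because the protein is moved and its gene is still transcribed.

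Nab3 is an RNA-binding subunit of the Nrd1-Nab3-Sen1 (NNS) complex. The complex ends Pol II transcription of snoRNAs, snRNAs and cryptic unstable transcripts (CUTs) and stops Pol II early on some mRNA genes, a process called attenuation. Yeast cells that lose glucose slow growth, close down ribosome synthesis, and turn on genes for other carbon sources, storage sugars, respiration and stress defence. In CRAC the tagged polymerase is cross-linked to the RNA it is making, so the reads report nascent transcription rather than RNA levels.

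Values are FPKM (fragments per kilobase of feature, scaled for the number of mapped reads), which the authors had scaled to almost the same sum in each library, so they are shares of a library and not amounts per cell. Reads on features numbered 239611 to 614533 in late libraries and 205443 to 539756 in early libraries. Of 12454 annotated features, 6965 were above 0 in all 16 rapamycin libraries and were tested with limma on log2(FPKM + 1), a scale that understates the change of low genes, with 1 late and 1 early mean per culture, and 5489 were not tested. The composition of the libraries moved with time. Ribosomal RNA took 19.49% to 23.26% of the reads in late libraries of time-course 1, against 16.58% to 18.1% in its early libraries, and 19.18% to 20.48% late against 13.91% to 14.74% early in time-course 2. The share of tRNA reads was 3.441% to 4.708% late against 2.344% to 2.816% early, and 4.249% to 6.804% late against 2.964% to 3.2% early. Protein-coding features had 48.92% to 53.5% late against 54.87% to 57.38% early, and 52.41% to 54.81% late against 58.12% to 59.42% early. Late and early shares of these classes did not overlap within either culture, and their part in the results on single genes was not tested.

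Late cross-linking differed from early cross-linking at an adjusted p under 0.05 for 2930 of 6965 features (42.1%). Of these, 802 were higher late (11.5% of the features tested) and 2128 were lower (30.6%). All 2930 changed in the same direction in both cultures, as did 80.88% of all tested features, but the calls were made from these same cultures. The changes of the cultures had a Pearson r of 0.82 across the 6965 features, which share libraries and are not independent. The change was at least 1 on the log2 scale for 528 of the features that rose and 1646 of those that fell, and at least 2 for 117 and 383. The median feature stood at −0.35, so the authors' scaling sets where no change lies. With equal library medians 1430 features (20.5%) were higher and 1407 (20.2%) lower (40.7% in all), and with an equal sum over protein-coding features 1121 (16.1%) were higher and 1663 (23.9%) lower. All 802 rises and 1407 of the 2128 falls (66.1%) were also called with equal medians. That scaling moved the median feature from −0.35 to 0.0044, which favours rises, so keeping all of them is no independent support. Without the detection filter 441 features (3.59%) rose and 1714 (14.0%) fell, and limma-voom on reads read back from the FPKM gave 1264 (18.1%) and 1959 (28.1%), or 46.3% in all. Time-course 2 alone gave 145 rises and 898 falls, and without its 0 min library the 2 cultures gave 457 rises.

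The 12 protein-coding features with the largest rise were led by HSP12, which encodes a small membrane-associated stress protein. HSP12 (YFL014W, chromosome VI from 107209 to 107788, plus strand, R64 build) had 602, 681 and 753 FPKM late and 16.0, 25.2 and 15.9 FPKM early in time-course 1. In time-course 2 it had 713, 905 and 852 FPKM late and 34.9, 64.1 and 81.8 FPKM early. The lowest late library was above the highest early library, and the rise was 4.47 ± 0.34 (SE) on the log2 scale (adjusted p = 7.98e-05, limma). YFL013W-A, a feature of unknown function that starts at base 107789 directly after the end of HSP12 on the same strand, rose by 4.38 ± 0.27 (134 to 252 FPKM late, 3.77 to 27.0 FPKM early), and whether its reads belong to HSP12 transcripts was not tested. JEN1 (chromosome XI, from 22234 to 24561), the transporter for lactate and pyruvate, had 13.7, 28.3 and 88.2 FPKM late against 1.33, 0.33 and 1.64 FPKM early in time-course 1, and 12.6, 32.2 and 80.6 FPKM late against 0.543, 0.364 and 3.48 FPKM early in time-course 2. It rose by 4.02 ± 0.27 (adjusted p = 7.82e-05), and in both cultures the 40 min library was the highest. HSP26, a small heat shock protein that holds unfolded proteins, had 46.7 to 131 FPKM late and 2.75 to 16.6 FPKM early (3.68 ± 0.27).

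RGI1, known from respiratory growth, had an early level that differed between the cultures. It had 667, 654 and 668 FPKM late against 26.6, 37.2 and 40.4 FPKM early in time-course 1, and 672, 742 and 741 FPKM late against 17.2, 189.6 and 326 FPKM early in time-course 2. The groups did not overlap, but the early libraries of time-course 2 labelled 1 and 2 min were already high, and RGI1 (3.51 ± 0.35 over both cultures) missed the threshold in time-course 2 alone. The stress genes TMA10 (3.54 ± 0.30) and DDR2 (3.51 ± 0.31), the lactate dehydrogenase CYB2 (3.33 ± 0.31), SUE1, which acts in the degradation of cytochrome c (3.31 ± 0.27), YML099W-A (3.30 ± 0.35) and YNR034W-A (3.28 ± 0.34) rose by similar amounts. YFR052C-A (3.91 ± 0.37) lies for 92.2% of its length within HXK1 on the same strand, so its reads cannot be told apart from those of HXK1. In all 12 features every late library was above every early library. Within each culture that held for 466 of the 6965 features (6.69%), and the reverse for 1416 (20.3%), and non-overlap was part of the rule that named these genes.

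Of the 12 largest falls, all but the cell wall gene UTR2 encode proteins of ribosome production, translation, RNA binding or nucleotide supply. NSR1, a nucleolar protein of pre-rRNA processing (chromosome VII, from 806202 to 808004), had 6.57, 0.877 and 1.14 FPKM late against 96.2, 95.8 and 83.3 FPKM early in time-course 1. In time-course 2 it had 1.92, 1.08 and 1.81 FPKM late against 61.7, 58.2 and 50.1 FPKM early. It fell by 4.69 on the log2 scale (SE 0.28, adjusted p = 5.26e-05), with no overlap, and its value at 18 min was the only late value above 2 FPKM. NOP56, a core protein of box C/D snoRNPs (chromosome XII, from 546060 to 547739), had 0.881, 0.628 and 1.46 FPKM late against 44.3, 34.3 and 31.4 FPKM early in time-course 1, and 0.514, 1.16 and 1.95 FPKM late against 50.5, 22.6 and 17.2 FPKM early in time-course 2. These late values rest on 1 to 6 reads per library and the early ones on 25 to 97, and NOP56 fell by 3.99 (SE 0.28). Further proteins of that particle among the falls were NOP58, which fell by 3.73 (0.651 to 3.09 FPKM late, 25.1 to 55.0 FPKM early), and SNU13, which fell by 3.74 (1.32 to 6.97 FPKM late, 16.8 to 88.3 FPKM early). The helicase gene DBP2 fell by 4.03 (0.574 to 4.24 FPKM late, 31.6 to 68.0 FPKM early).

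RPL3, a protein of the large ribosomal subunit, kept more late cross-linking per length than these assembly genes. It had 33.6, 19.9 and 17.7 FPKM late against 346, 226 and 244 FPKM early in time-course 1, and 25.3, 13.5 and 12.6 FPKM late against 255, 140.5 and 139 FPKM early in time-course 2. No late library reached an early one, and RPL3 fell by 3.40 (SE 0.27, adjusted p = 8.43e-05). The acidic stalk protein RPP2B fell by 3.77, the elongation factor YEF3 by 3.36 and the purine salvage enzyme HPT1 by 3.34. GIS2 and SRO9, which bind mRNA and act in translation, fell by 3.57 and 3.45, and the cell wall transglycosylase UTR2 fell by 3.57. Leaving out any 1 of the 12 libraries ended the call of none of these 24 features. They were chosen from the same 12 libraries as the largest changes without overlap, which favours this outcome, so it is no independent check.

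**Figure D1:**
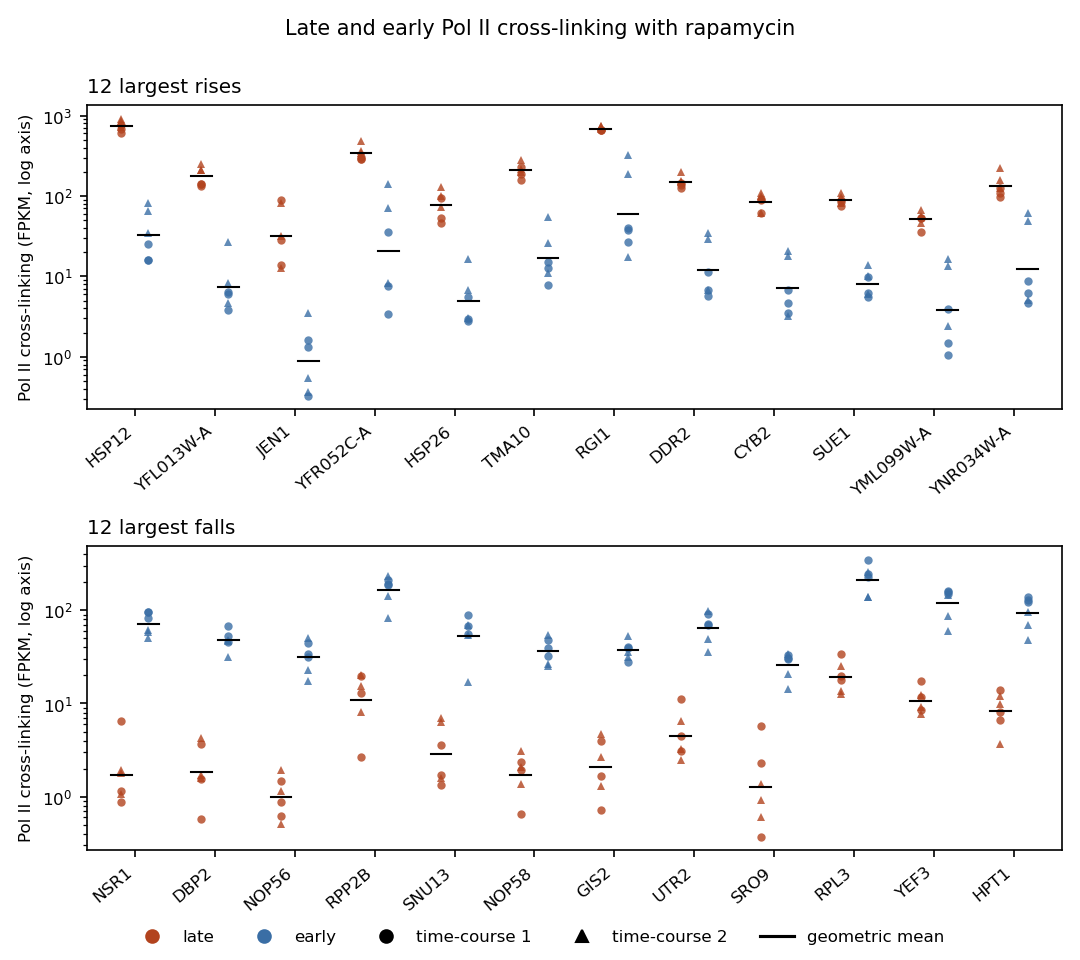
Pol II cross-linking in FPKM on a log axis for the 12 protein-coding features with the largest rise (top) and the 12 with the largest fall (bottom), with late libraries left of early libraries. Circles are time-course 1, triangles time-course 2, and bars the geometric mean of 6 libraries. No late library overlaps an early library for any of the 24 features, and the early triangles of RGI1 reach 326 FPKM while its lowest late library has 654 FPKM.

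The upstream sequences of 4 of these genes are shown because stress genes and ribosome assembly genes are known for different promoter elements. The stress response element STRE (AGGGG or its reverse complement CCCCT) is bound by the stress activators Msn2 and Msn4. The PAC element (GATGAG or CTCATC) and the RRPE element (AAAATTTT, its own reverse complement) are known from promoters of ribosome assembly genes. The sequences are the 250 bases before the first base of the annotated feature, on its strand, 5′ to 3′, read from RefSeq R64. Capitals mark STRE in HSP12 (chrVI:106959-107208) and RGI1 (chrV:291735-291984), and PAC and RRPE in NOP56 (chrXII:545810-546059) and NOP58 (minus strand, chrXV:898393-898642).
HSP12: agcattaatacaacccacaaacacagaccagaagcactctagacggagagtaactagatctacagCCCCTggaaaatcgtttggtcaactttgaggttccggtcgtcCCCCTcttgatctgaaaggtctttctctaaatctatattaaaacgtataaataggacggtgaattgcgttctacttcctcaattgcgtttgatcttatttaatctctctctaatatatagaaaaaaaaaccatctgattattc
RGI1: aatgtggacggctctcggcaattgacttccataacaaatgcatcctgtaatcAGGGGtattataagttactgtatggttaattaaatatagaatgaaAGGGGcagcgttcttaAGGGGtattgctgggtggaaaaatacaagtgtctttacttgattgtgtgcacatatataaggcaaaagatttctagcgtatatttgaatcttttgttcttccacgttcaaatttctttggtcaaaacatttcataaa
NOP56: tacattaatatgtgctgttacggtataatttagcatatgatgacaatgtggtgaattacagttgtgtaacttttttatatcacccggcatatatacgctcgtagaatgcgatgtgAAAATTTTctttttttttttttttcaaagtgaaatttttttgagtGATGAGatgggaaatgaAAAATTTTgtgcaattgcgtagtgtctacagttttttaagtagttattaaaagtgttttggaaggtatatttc
NOP58: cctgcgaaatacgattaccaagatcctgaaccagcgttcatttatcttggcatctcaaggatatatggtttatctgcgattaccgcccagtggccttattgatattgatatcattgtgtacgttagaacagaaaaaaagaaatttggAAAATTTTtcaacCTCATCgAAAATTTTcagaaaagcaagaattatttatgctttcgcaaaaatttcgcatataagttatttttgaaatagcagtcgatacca
HSP12 had 2 STRE matches that began 185 and 143 bases before the feature, and RGI1 had 3, at 198, 153 and 137 bases. NOP56 and NOP58 each had 1 PAC match and 2 RRPE matches, between 135 and 73 bases upstream in NOP56 and between 103 and 83 bases upstream in NOP58.

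Across 6663 promoters of this length, 18.7% held STRE, 17.1% PAC and 7.58% RRPE. STRE was present in 6 of the 12 largest rises and 1 of the 12 largest falls. PAC was present in 1 of the rises and 7 of the falls, and RRPE in 1 of the rises and 8 of the falls. Of the 473 protein-coding features that rose, 221 (46.7%) held STRE, against 181 of 1537 (11.8%) of those that fell. The 1537 that fell held PAC in 17.6% and RRPE in 12.6%, so PAC was at its share of all promoters. The trehalose and glycogen genes held STRE in 14 of 21 promoters (66.7%). The ribosome assembly genes held PAC in 91 of 136 (66.9%) and RRPE in 88 of 136 (64.7%), whereas the ribosomal protein genes, which fell as well, were at 12.3% and 7.25%. JEN1 and HSP26 had no STRE, and NSR1 and DBP2 had neither PAC nor RRPE in this window. These are matches of letters, without a test, and overlapping transcripts share promoters.

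**Figure D2:**
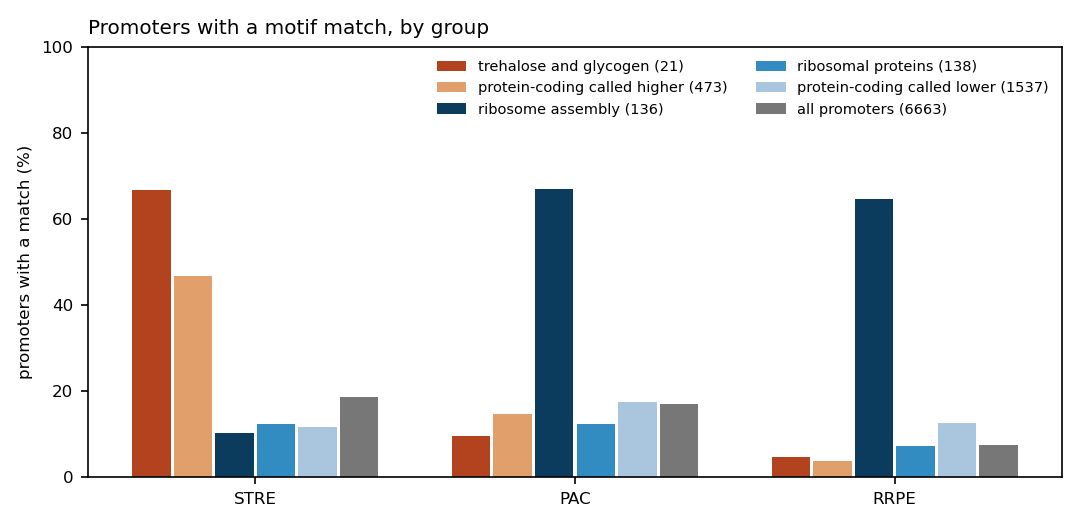
Percentage of promoters (250 bases) with a match to STRE, PAC or RRPE in 6 groups, with the number of promoters in brackets. STRE stands at 66.7% in trehalose and glycogen genes, PAC and RRPE at 66.9% and 64.7% in ribosome assembly genes, against 18.7%, 17.1% and 7.58% of all promoters.

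The growth genes were described by lists, with 11.5% of all tested features higher and 30.6% lower for comparison. Of 137 ribosomal protein genes tested, 136 fell and 1, RPL7A (−0.66), did not pass, with a median change of −2.18. With equal library medians 133 fell. Of 136 ribosome assembly genes only 45 were above 0 in all 16 libraries, and of these 43 fell and 1, RPF1, rose (1.04), with a median of −2.46. Without the detection filter 120 of the 136 fell and the median was −2.89, and a gene lost to 0 reads late was left out of the filtered test. CBF5, the pseudouridine synthase of box H/ACA snoRNPs, fell by 3.20 and the GTPase NOG1 by 3.21. Translation factors fell in 34 of 37 cases (median −2.07), among them the recycling factor RLI1, which fell by 3.25, and the eIF3 subunit RPG1, which fell by 3.03. TIF4632, which encodes the second form of eIF4G, stood at 0.39 and did not pass, while the main form, TIF4631, fell by 2.74.

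The other polymerases and the supply of nucleotides and amino acids moved with the ribosome genes. Of 8 genes tested for Pol I and Pol III subunits, 7 fell (median −2.01). RPC40, a subunit that both enzymes share, had at most 2.99 FPKM late and 15.0 to 42.5 FPKM early, and RPA135, the second largest Pol I subunit, had 0.827 to 1.72 FPKM late and 9.17 to 20.7 FPKM early. Neither gene's late and early values overlapped. Purine and GTP synthesis genes fell in 17 of 22 cases (median −1.89), pyrimidine genes in 6 of 9 (−2.10), amino acid genes in 47 of 63 (−1.43) and sulfur and methionine genes in 14 of 23 (−1.15). ARO4, the entry to aromatic amino acid synthesis, fell by 3.11, the uracil salvage enzyme FUR1 by 3.27, and SAM2, an S-adenosylmethionine synthetase with a close paralogue, by 2.04. BAT2, the cytosolic branched-chain aminotransferase, rose (0.88) while its mitochondrial paralogue BAT1 fell by 2.25.

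**Figure D3:**
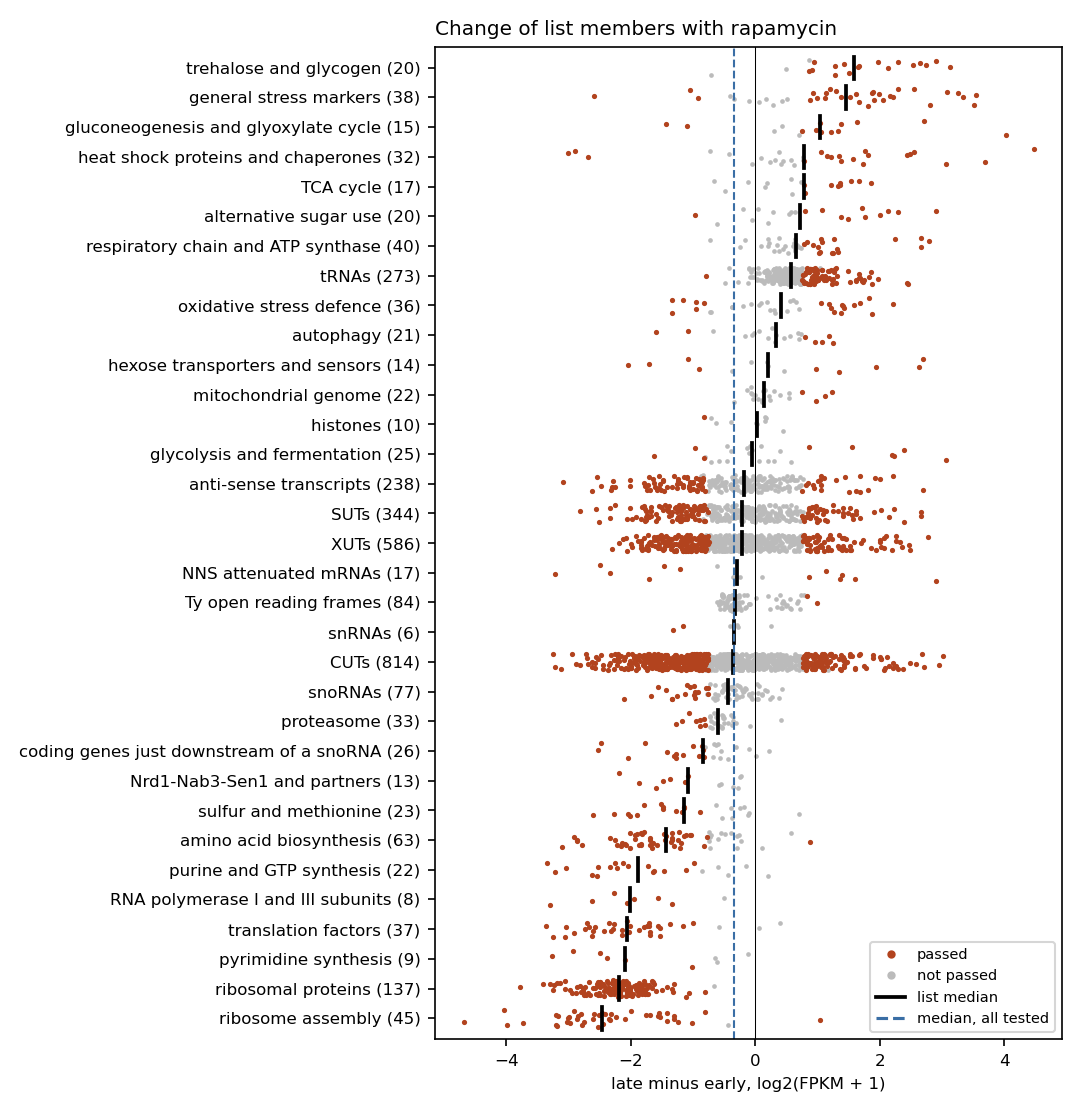
Change of each tested member of 33 gene lists, late minus early on the log2(FPKM + 1) scale, with the number of members tested in brackets. Red points passed the threshold of 0.05 and grey points did not, black bars are list medians and the dashed line is the median of all tested features (−0.35). The lists run from trehalose and glycogen (1.58) at the top to ribosome assembly (−2.46) at the bottom.

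Most storage carbohydrate genes rose in the filtered test. Of 20 trehalose and glycogen genes tested, 17 rose and 3 did not pass (median 1.58). Without the detection filter 8 of 21 rose (median 1.51), against 3.59% of all features. PGM2, phosphoglucomutase, which feeds glucose phosphate into both pools, had 119 to 266 FPKM late and 3.33 to 114 FPKM early, without overlap (3.12 ± 0.33). The list holds synthesis and breakdown together. The debranching enzyme GDB1 (2.90), glycogen phosphorylase GPH1 (2.74) and the branching enzyme GLC3 (2.64) all rose, as did the trehalose synthase subunits TSL1 (2.29), TPS1 (1.67) and TPS2 (1.28) and the trehalases NTH2 (0.94) and NTH1 (0.91). PGM1, the minor phosphoglucomutase, stood at −0.71 and did not pass. PGM2, GPH1 and GLC3 missed the threshold in time-course 2 alone.

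A high-affinity and a low-affinity glucose transporter moved apart. The high-affinity transporter HXT7 had 738, 606 and 537 FPKM late against 37.4, 92.9 and 118 FPKM early in time-course 1. In time-course 2 it had 991, 898 and 665 FPKM late against 21.6, 419.6 and 495 FPKM early. The groups did not overlap, and HXT7 had already left its 0 min level at 1 min in time-course 2. HXT7 (2.69 ± 0.29) and its near-identical neighbour HXT6 (2.63 ± 0.30) share reads, which were distributed at random between copies, and both missed the threshold in time-course 2 alone. The low-affinity transporter HXT1 had 3.83 to 13.8 FPKM late and 28.3 to 54.8 FPKM early (a fall of 2.05, SE 0.28). Of 14 hexose transporter and sensor genes, 5 rose and 4 fell, and the repressors MIG2 and MIG3 fell by 1.71 and 1.08 while MIG1 (0.47) did not pass.

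Glycolytic genes were as split. Hexokinase HXK1 (3.05 ± 0.32), glucokinase GLK1 (2.23 ± 0.30), the second pyruvate kinase PYK2 (2.39 ± 0.35) and GPM2 (2.20 ± 0.30) rose, with TDH1 (1.55) and ENO1 (0.86). The isozymes used in glucose did not pass: hexokinase HXK2 stood at −0.45, CDC19 at −0.13, TDH3 at 0.20 and ENO2 at −0.05. Pyruvate decarboxylase PDC1, which directs pyruvate to ethanol, fell by 1.63. Over the list 6 of 25 rose, 3 fell and the median was −0.05, which was 0.34 with equal library medians.

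Genes for growth on other carbon sources rose in 10 of 15 gluconeogenesis and glyoxylate cycle genes (median 1.03) and 10 of 20 genes of alternative sugar use (median 0.72). Besides JEN1 these were the mitochondrial aldehyde dehydrogenase ALD4 (133 to 157 FPKM late, 8.43 to 63.0 FPKM early, without overlap), isocitrate lyase ICL1 (1.37) and the cytosolic malate dehydrogenase MDH2 (0.97). Without the detection filter 8 of 24 gluconeogenesis and glyoxylate cycle genes and 7 of 32 genes of alternative sugar use rose. The activator ADR1 rose by 2.29 ± 0.29 and CAT8, which activates gluconeogenic genes, by 2.14 ± 0.27. The cytosolic aldehyde dehydrogenase ALD6, used in glucose, fell by 1.10. Of the TCA cycle genes 9 of 17 rose and none fell (2 of 19 and 1 without the detection filter), with the succinate dehydrogenase subunits SDH4 (1.86), SDH2 (1.67) and SDH1 (1.35) among the largest. In the respiratory chain and ATP synthase list 17 of 40 rose and none fell (median 0.66), a count of 29 with equal library medians and of 4 without the detection filter. Its largest changes were in the cytochrome c oxidase subunit COX26 (listed as YDR119W-A, 2.79), the second cytochrome c CYC7 (41.6 to 142 FPKM late, 4.73 to 20.5 FPKM early, 2.67) and the ATP synthase inhibitor proteins STF2 (2.66) and STF1 (2.25), and other subunits of the chain that rose include CYT1 (1.32) and QCR8 (1.24).

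Chaperone genes changed in both directions. In the heat shock and chaperone list 16 of 32 rose and 3 fell (median 0.78), and without the detection filter 8 of 35 rose and 3 fell. Inducible Hsp70 SSA4 had 76.8 to 121 FPKM late and 5.07 to 17.2 FPKM early, without overlap (3.06 ± 0.29), and the aggregate-sorting protein BTN2 (2.54), HSP42 (2.43), the disaggregase HSP104 (1.76) and HSP82 (1.57) also rose. The 3 that fell were SSB2, SSB1 and SSZ1, which bind nascent chains at the ribosome. SSB2 had 8.27, 7.97 and 9.84 FPKM late against 109, 53.2 and 46.4 FPKM early in time-course 2, and did not overlap in either culture (a fall of 3.01, SE 0.28), and SSB1 and SSZ1 fell by 2.89 and 2.70. Constitutive HSC82 (0.09) and SSE1 (−0.06) did not pass.

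Of 38 general stress markers 27 rose and 3 fell (median 1.45), and the decapping-related DCS2 had 55.9 to 78.1 FPKM late and 0.813 to 33.7 FPKM early (3.25 ± 0.36). Without the detection filter 18 of 43 markers rose and 1 fell. The stress activators themselves, MSN2 (−0.42) and MSN4 (−0.11), did not pass. In oxidative stress defence 13 of 36 rose and 6 fell (median 0.41), and without the detection filter 4 of 39 rose and none fell. Cytosolic catalase CTT1 (2.21), the mitochondrial peroxiredoxin PRX1 (1.87) and superoxide dismutase SOD2 (1.37) rose, and the regulators SKN7 and YAP1 fell by 1.34 and 0.82. The late and early ranges of CTT1 overlapped (34.2 to 97.7 FPKM late and 4.08 to 36.1 FPKM early). Little changed in the histones, where 1 of 10 fell (HTZ1, by 0.82) and the median was 0.02. Of 33 proteasome genes 8 fell (median −0.61), a count of 2 with equal library medians.

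Transcripts that the NNS complex acts on were described in the same way, since all 12 libraries came from rapamycin-treated cells. NAB3 had 10.5, 9.01 and 11.5 FPKM late against 20.7, 15.4 and 25.4 FPKM early in time-course 1, and 16.5, 12.9 and 15.4 FPKM late against 14.7, 15.5 and 26.5 FPKM early in time-course 2. The groups overlapped and the change of −0.59 (SE 0.29) did not pass (adjusted p = 0.122). NRD1, whose transcript the complex attenuates, was at 70.6 to 86.5 FPKM late and 87.1 to 119 FPKM early, which did not overlap, but its change of −0.36 was that of the median feature and did not pass. The helicase SEN1 (0.388 to 1.59 FPKM late, 2.94 to 5.40 FPKM early) fell by 1.36, and the nuclear exosome nuclease RRP6, which degrades NNS-terminated RNA, fell by 2.19. Of 13 genes of the complex and its partners tested, 7 fell and none rose.

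A list of 17 mRNAs discussed for NNS attenuation went both ways, 6 up and 6 down. It includes YBR085C-A, which the study used as a negative control. The study also found this gene induced faster when its Nrd1 and Nab3 motifs were mutated. MAL33, the maltose activator, had 52.6, 65.8 and 78.3 FPKM late against 6.88, 5.97 and 9.67 FPKM early in time-course 1, and 44.7, 66.4 and 54.8 FPKM late against 0.702, 9.86 and 24.4 FPKM early in time-course 2. Late libraries were all above the early ones (2.91 ± 0.27). IMD3, an IMP dehydrogenase of GTP synthesis, had 4.43 to 7.68 FPKM late and 37.9 to 91.5 FPKM early, without overlap, and fell by 3.22. It shares sequence with IMD2, which fell by 2.33. GRE3 (1.39), YBR085C-A (1.36), PIC2 (1.14) and ENO1 (0.86) rose over both cultures and missed the threshold in time-course 2 alone.

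Small stable RNAs moved little. None of 77 snoRNAs rose and 19 fell, 7 of them also with equal library medians, and the list median of −0.43 was near that of all features. The largest fall was in snR87, a guide of 2′-O-methylation, with 47.6, 35.7 and 6 FPKM late against 162, 139.6 and 127 FPKM early in time-course 2, and 48.3 to 90.3 FPKM late against at least 169 FPKM early in time-course 1. Its groups did not overlap (a fall of 2.11, SE 0.32). The U3 gene snR17b, needed for the first cuts of pre-rRNA, had 74.1 to 122 FPKM late and 198 to 423 FPKM early and fell by 1.57. The gene of snR44 lies within the intron-bearing ribosomal protein gene RPS22B, so the fall of 1.43 at snR44 cannot be told apart from that of its host. Of the spliceosomal snRNAs, U2 (LSR1) and U1 (snR19) fell by 1.32 and 1.16. Among 26 coding genes that begin within 500 bases downstream of a snoRNA on the same strand, where read-through would be counted, none rose and 14 fell (8 with equal medians), led by POL5 and RPS14A, which fell by 2.53 and 1.77 and act in ribosome production.

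Cryptic and anti-sense transcripts had medians near that of all features. Of 814 CUTs above 0 in all libraries (of 2421 annotated), 105 rose and 270 fell (median −0.35), and with equal library medians 176 rose and 171 fell. The same held for SUTs (48 rose and 91 fell of 344), XUTs (76 and 146 of 586) and anti-sense transcripts (22 and 61 of 238), whose medians of −0.21, −0.22 and −0.19 turned positive with equal library medians. Several of the largest changes lie over genes named above on the same strand. CUT_CDR120CC1 (3.02 ± 0.42) lies within COX26, Unit294 (2.69 ± 0.32) covers PGM2, and CUT_COR327CC2, which fell by 3.22, overlaps MYO2. Their reads cannot be told apart from those of the gene. XUT_16R-274 had 100.2 to 141 FPKM late and 5.42 to 34.6 FPKM early, without overlap (2.77 ± 0.31), and lies inside SUT826 with no coding gene on its strand.

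Genes of mobile elements and of other polymerases were also counted in the Pol II libraries. Of 84 Ty open reading frames, whose copies share reads, 2 rose (YDR261W-A, 0.98, and YGR161W-A, 0.82) and none fell, and both calls were lost in time-course 2 alone, with only 40 min as late, with only 1 and 2 min as early, or without the detection filter. With equal library medians 17 rose, and with equal sums over protein-coding features 6. Of 266 nuclear tRNA genes, which Pol III transcribes, 70 rose and 1 fell (median 0.57), and with equal library medians 188 rose. Without the detection filter 21 of all 299 tRNA genes, mitochondrial ones included, rose. The valine tRNA gene tV(AAC)K2 had 190.0 to 415 FPKM late and 22.1 to 149 FPKM early, without overlap (2.44 ± 0.30), and copies of a tRNA share reads. Of 22 mitochondrial features, which the mitochondrial polymerase transcribes, 4 rose, all among the 7 mitochondrial tRNA genes tested (0.75 to 1.23 for those that rose).

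The order of events was read from the libraries between the windows. Of the 802 features that rose, 48.0% in time-course 1 and 67.8% in time-course 2 were past the midpoint between their early and late levels at 4 min, and 85.4% at 10 min and 79.8% at 8 min. Of the 2128 features that fell, 11.3% and 25.7% were past it at 4 min, and 65.8% at 10 min and 59.9% at 8 min. A larger share of the rises than of the falls was past the midpoint at each of these times. The features had to be above 0 in every library, which left out genes that reached 0 reads early (45 of 136 ribosome assembly genes were tested). In the calls made without that filter, added after the data were seen, 45.1% and 70.7% of 441 rises and 10.6% and 29.8% of 1714 falls were past it at 4 min. These shares describe features chosen by their late level and carry no test.

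The lists differed in course. Trehalose and glycogen genes were 0.87 above their early mean at 4 min and 2.25 at 10 min in time-course 1, and stood at 1.98 at 40 min. In time-course 2 they were 1.18 below that mean at 0 min, 0.46 above it at 1 min, 1.10 at 4 min and 0.93 at 40 min. The hexose transporter median went up and came back, with values of 0.82 at 4 min, 1.06 at 10 min and −0.12 at 40 min in time-course 1, and 0.99, 1.03 and −0.24 at 4, 8 and 40 min in time-course 2. Chaperones peaked at 1.49 at 10 min in time-course 1 and stood at 0.74 at 40 min, while in time-course 2 they were between 0.65 and 0.85 at 4 to 20 min and at 0.61 at 40 min.

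From 4 min on the median of the ribosome assembly genes was lower than that of the ribosomal protein genes in both cultures. In time-course 2 the gap was small late, with −2.15 against −2.10 at 20 min and −2.34 against −2.32 at 40 min. Ribosome assembly genes were at −0.53 at 4 min and −2.01 at 10 min in time-course 1, and at −0.91 at 4 min and −1.91 at 8 min in time-course 2. Ribosomal protein genes were at −0.46 and −1.24, and at −0.63 and −1.32, at the same times. They were still falling late, from −1.94 at 18 min to −2.52 at 40 min in time-course 1 and from −1.77 at 14 min to −2.32 at 40 min in time-course 2. Amino acid genes were near 0 at 4 min (0.07 and −0.04) and at −1.59 and −1.73 at 40 min. JEN1 was still climbing at 40 min, with 3.10 FPKM at 4 min and 10.2 FPKM at 10 min in time-course 1 against 88.2 FPKM at 40 min. The tRNA median was 0.67 and 0.87 at 40 min.

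**Figure D4:**
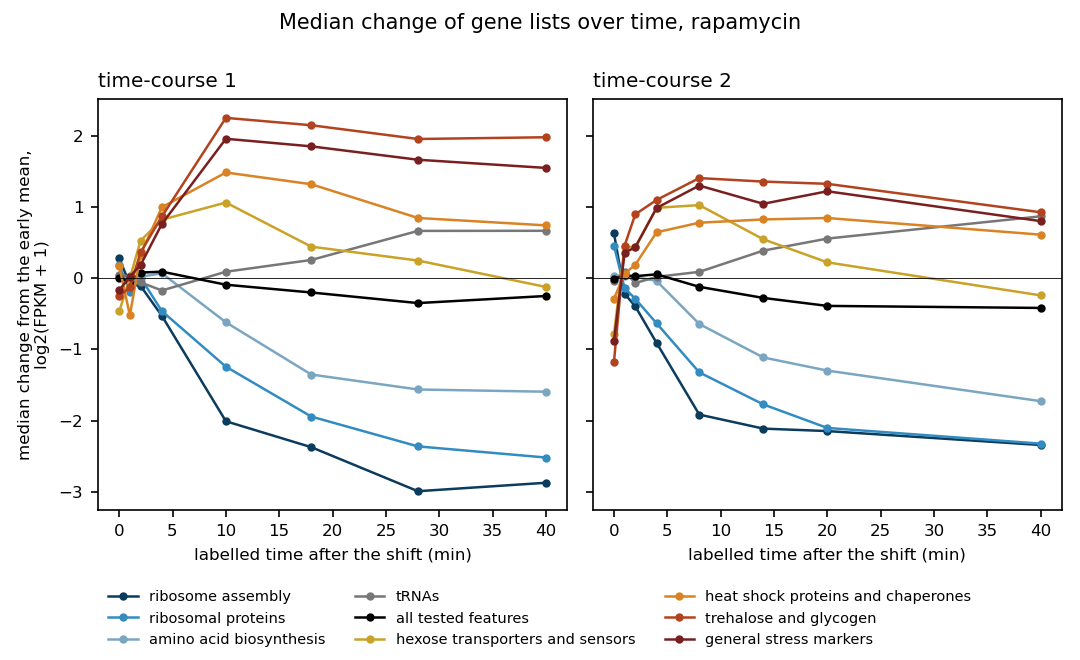
Median change of 8 gene lists and of all tested features against the early mean of the same culture, on the log2(FPKM + 1) scale, by labelled time in min, with time-course 1 and time-course 2 in separate panels. Trehalose and glycogen genes are at 0.87 and 1.10 at 4 min, when ribosomal protein genes are at −0.46 and −0.63, and at 40 min ribosome assembly genes reach −2.87 and −2.34.

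Whether the response depends on Nab3 was tested by setting the late minus early change of the 2 rapamycin cultures against that of 2 ethanol cultures of the same strain. Early was 1 and 2 min in all 4, and late was 18 and 51 min in ethanol time-course 1 and 14, 20 and 40 min in ethanol time-course 2. None of 3793 features passed (0.0%, limma, smallest adjusted p = 0.46), and 394 had an unadjusted p under 0.05. In ethanol alone 193 of 3727 features rose (5.18%) and 1052 fell (28.2%). Of 1400 features called in rapamycin and tested in ethanol, 1338 changed in the same direction and none was called in the opposite one. These 1400 were chosen for their change in rapamycin, and the median feature fell in both drugs (−0.28 and −0.60), which favours a shared direction. NSR1 fell by 4.64 in ethanol (adjusted p = 0.0034) and the difference between the drugs was 0.00 ± 0.43 (SE). RPL3 fell by 3.10 in ethanol, and its difference was −0.07 ± 0.54. The FPKM of every library in the rapamycin and ethanol tables added up to the same total, between 479564 and 479572, so levels in both drugs are shares of one total. Protein-coding features had 38.08% to 55.42% of the reads in late ethanol libraries and 48.92% to 54.81% in late rapamycin libraries. The median difference between the drugs was 0.30, but 0.0041 with equal sums over protein-coding features and 0.019 with equal library medians. The differences and list medians below use the authors' scaling. The ethanol libraries were shallow, with 47401 reads in the smallest against 205443 in the smallest rapamycin library, and without ethanol time-course 2 the test called 166 features with a higher and 49 with a lower change in rapamycin. That leaves 1 ethanol culture, the shallow one, which is assumed to vary as the 2 rapamycin cultures do.

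The differences with the smallest unadjusted p are named although all missed the adjusted threshold. BTN2 had 342, 275 and 281 FPKM late against 25.1 and 73.2 FPKM at 1 and 2 min in rapamycin time-course 1, and 367, 420 and 313 FPKM against 76.9 and 144 FPKM in time-course 2. In ethanol it had 414 and 325 FPKM late against 7.47 and 34.8 FPKM early, and 755, 725 and 436 FPKM against 12.2 and 20.4 FPKM. Late and early were apart in both drugs, the early ethanol values were lower, and the change was smaller in rapamycin by 2.53 on the log2 scale (SE 0.52, unadjusted p = 0.00148). The other genes with a smaller change in rapamycin were the Hsp90 cochaperone STI1 (−1.89), the metallothionein CUP1-2, which has a near-identical copy, SUT564 (−1.72) and CUT314 (−1.77). A larger or less negative change in rapamycin was found for the ubiquitin-binding CUE5 (2.57), MBB1 (2.21), ERC1 (2.18), YJR054W (2.15) and the phospholipase PLB3 (1.99), with unadjusted p between 0.000612 and 0.00148.

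Genes that the study named were compared in the same way. It named MAL33 and PIC2 as attenuated by Nab3 during starvation, with IMD3 as a known positive control and YBR085C-A, LST8 and GLK1 as negative controls. Its evidence was the distribution of Pol II along each gene and total RNA by qRT-PCR, and IMD3 RNA was raised already in glucose. A late minus early change over a whole gene leaves out effects present before the shift and moves of Pol II within the gene. Of the negative controls, the study found LST8 mRNA levels altered after Nab3 depletion. It also found faster induction of YBR085C-A mRNA when Nrd1 and Nab3 motifs were mutated, and ascribed to NNS a role in its kinetics. YBR085C-A had 268 to 344 FPKM late against 92.3 to 256 FPKM at 1 and 2 min in rapamycin, and 264 to 489 FPKM late against 5.32 to 86.7 FPKM in ethanol. Its change was smaller in rapamycin by 2.06 on the log2 scale (SE 0.52, unadjusted p = 0.00456). LST8, a subunit of both TOR complexes, differed by −1.26 (SE 0.45, unadjusted p = 0.0256) and HXT7, a member of the transporter list, by −2.19 (SE 0.74, unadjusted p = 0.0195). HXT7 had 92.9, 118, 419.6 and 495 FPKM at 1 and 2 min in the 2 rapamycin cultures and 25.1 to 52.4 FPKM in ethanol, so its level at these times was higher in rapamycin. In each rapamycin culture its 0 min level was below these values. The hexose transporter medians in rapamycin were −0.47 and −0.79 from the early mean at 0 min, and 0.0007 and 0.45 at 1 min. A change from 1 and 2 min leaves out what had moved by then in either drug, and its part in these differences was not tested. The differences of MAL33 (0.73 ± 0.55), PIC2 (0.05 ± 0.52), ENO1 (0.17 ± 0.47), GLK1 (−0.53 ± 0.60), GRE3 (−0.67 ± 0.50) and IMD3 (−0.52 ± 0.52) were each smaller than 2 SE, which does not show that the drugs acted alike.

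List medians over features above 0 in both drugs were also set side by side, with no test of the list. Ribosomal protein genes stood at −2.02 in rapamycin and −2.23 in ethanol, and ribosome assembly genes at −1.86 and −2.21. Chaperones stood at 0.82 in rapamycin and 1.74 in ethanol, and hexose transporters at −0.06 and 0.66. Gluconeogenesis genes stood at 1.17 in rapamycin and 0.14 in ethanol. Ty open reading frames stood at −0.45 in rapamycin and −0.96 in ethanol. With all members tested in each drug, none of 84 fell in rapamycin and 32 of 81 in ethanol, against 30.6% and 28.2% of all features tested. These counts used 0 to 2 min as early in rapamycin and 1 and 2 min in ethanol, so they cannot be compared directly. In rapamycin the early Ty medians were lowest at 0 min (−0.31 and −0.19 from the early mean). The medians of all features above 0 in both drugs were −0.28 and −0.60.

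**Figure D5:**
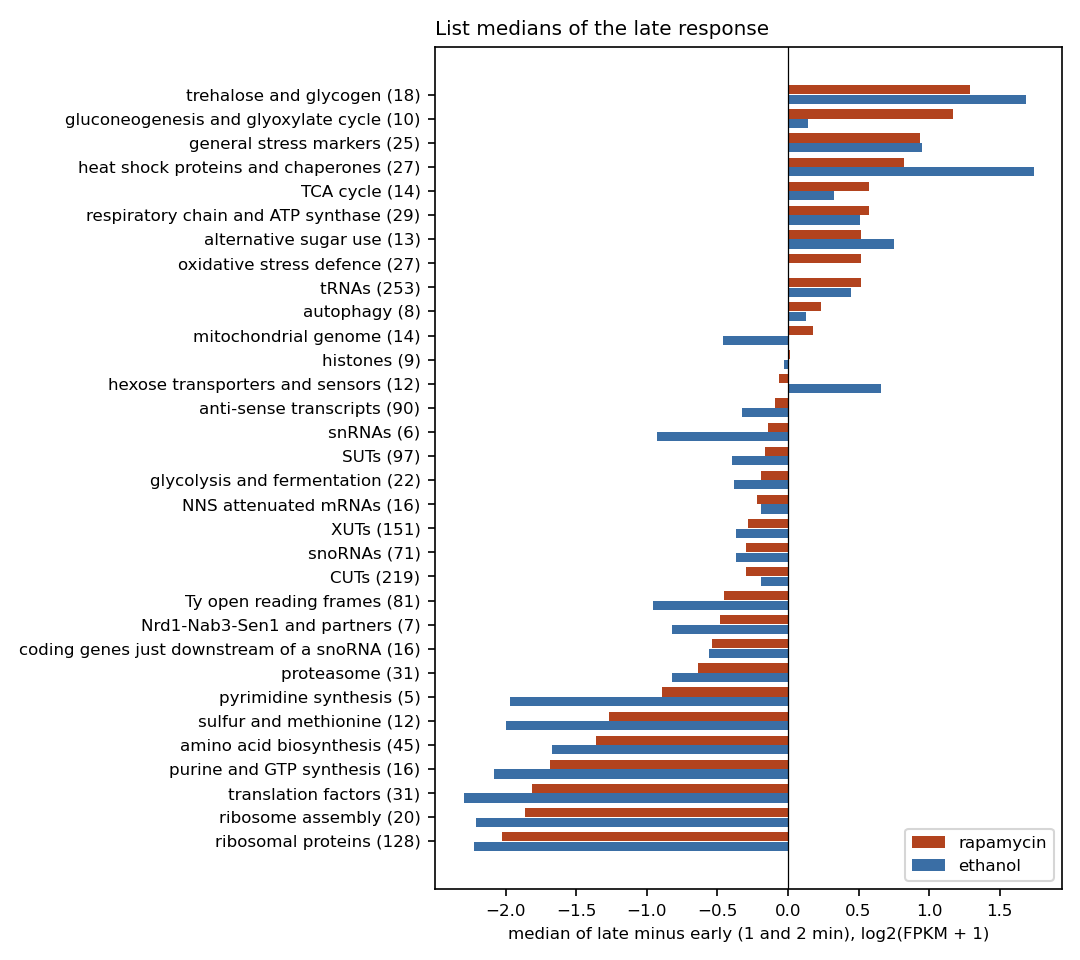
Median late minus early change of each gene list in rapamycin (above) and ethanol (below) on the log2(FPKM + 1) scale, over the features above 0 in both drugs and with 1 and 2 min as early. Growth lists lie on the same side in both drugs, and chaperones have medians of 0.82 in rapamycin and 1.74 in ethanol.

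The features called in the rapamycin cultures were last read in cultures that the fit did not use, as medians of late minus early with no test. The windows differed. In ethanol they were those given above, and without the FRB tag and in glucose 14 and 20 min were set against 0, 1 and 2 min. The untagged strain had only 14 min against 0 min. The smallest early library without the tag had 25776 reads, so the medians are not like measures. The 802 features that rose had medians of 1.07 and 1.14 in the ethanol cultures, 1.45 and 1.15 in 2 cultures without the FRB tag, 1.46 in the untagged strain with rapamycin and 1.42 in that strain with ethanol. In the culture filtered and returned to glucose, which had no FRB tag and no rapamycin, their median was 0.02. The 2128 features that fell had medians of −1.64 and −1.71 in ethanol, −1.36 and −1.18 without the tag and 0.04 in glucose. Trehalose and glycogen genes stood between 1.27 and 2.54 in the 6 cultures that lost glucose and at −0.08 in glucose. Chaperones stood between 1.54 and 2.34 in those 6 cultures and at 0.37 in glucose, where 28 of 32 were above 0. The 2 libraries of each untagged culture were not scaled to one sum.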

How the data were processed

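Pol II CRAC libraries of the Nab3-FRB strain were taken from the deposited FPKM tables of 2 rapamycin and 2 ethanol time-courses, with other Pol II tables for comparison. The authors made the FPKM values from reads that were collapsed by random barcode, aligned to the R64 genome with Novoalign (2.0.4 in the submitters' processing notes, another version in the study's methods) and counted on annotated features, with reads that map to several places distributed at random, and scaled the libraries of experiments analysed together to one sum. The deposited annotation gave the other values used, feature coordinates, of which 99.9% of 6007 coding sequences lay at the same place in RefSeq R64. In the tables used, 2 columns whose name matched no sample label were not used, and 1 line that matched no annotated feature was dropped.

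Late (3 libraries) and early (3 libraries) log2(FPKM + 1) values were averaged per culture and compared with limma 3.58.1 in R 4.3.3, with the time-course as a block because late and early libraries come from one culture. Features above 0 in all 16 rapamycin libraries were tested, with Benjamini-Hochberg adjustment over all of them and a threshold of 0.05. With 2 cultures an exact sign-flip test cannot go below p = 0.5, so class shares were not tested. FPKM values were whole multiples of 1 read in 100% of cases (tolerance 0.02), which gave the reads per library and the counts for limma-voom. Precision was limited by 205443 to 614533 reads per library, and 9.78% to 24.1% of features were at 0 in a library. Python 3.11.15, numpy 2.4.6, pandas 2.3.3 and matplotlib 3.10.9 were used.

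Genes were named by rule: the 12 largest rises and 12 largest falls among protein-coding features with a mean of at least 10 FPKM and no overlap within either culture, 5 and 5 of the non-coding features, up to 4 members of each of 33 lists, the study's own genes, and the smallest p of the drug comparison. Further list members were named after their values were seen. The members and lists were chosen with earlier results of these data known. The fit was tested on simulated data: of 8672 features, 97.7% of 87 changed by 2 on the log2 scale and 100.0% of 75 changed by 3 were recovered, with 21 false calls. The simulated spread was set by hand and not taken from the cultures, and all other features were left unchanged. Changes below 2, which most calls were, were not simulated, so their recovery and the false calls in the real data are not known from it. Alternatives were other pseudocounts, filters, scalings and windows, limma-voom, no block, single libraries as observations, and leaving out each library or culture.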

Additional observations from a re-analysis of the deposited data

Results flagged for a closer look

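In 332 groups of 6 libraries (late or early, 166 named features), 14 had 1 library whose gap to the next exceeded Dixon's 95% critical value for 6 samples. Chance alone gives about 1 in 20 such groups. Of the 14, 5 were in the 2 min library of time-course 2, which had 228381 reads. There SNU13 had 16.8 FPKM (54.6 to 88.3 in the other early libraries), CAT8 4.84 (0.787 to 1.68), snR19 159 (237 to 299.8), YCR015C 7.28 (29.3 to 58.5) and PLB3 10.5 (17.3 to 22.1). RRP6 was low at 1 min of time-course 2, at 3.7 FPKM (8.75 to 13.2). Among late libraries, the one of time-course 1 at 18 min stood apart for NSR1 at 6.57 FPKM (0.877 to 1.92), SUT062 at 11 (20.8 to 27.6) and YJR054W at 5.94 (2.47 to 3.47). The 40 min library of time-course 1 had 141 FPKM of XUT_16R-274 (100.2 to 113) and 75.6 of STF1 (88.7 to 93.7). In time-course 2, SAH1 had 6.03 FPKM at 20 min (15.5 to 22.1), XUT_13R-388 had 56.3 at 20 min (34.1 to 39.8) and snR87 had 6 at 40 min (35.7 to 90.3).

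Only the named features were searched for changes of opposite sign in the drugs with an unadjusted p under 0.05 for the difference. There were 5, and none passed adjustment over the 3793 features tested, of which 394 had an unadjusted p under 0.05 (smallest adjusted p 0.46, limma). The log2 change of CUE5 was 1.82 in rapamycin and −0.76 in ethanol, a difference of 2.57 (unadjusted p = 0.000612). MBB1 changed by 1.93 in rapamycin and −0.28 in ethanol, a difference of 2.21 (unadjusted p = 0.00106). The mitochondrial tRNA genes tQ(UUG)Q and tC(GCA)Q changed by 0.71 and 0.94 in rapamycin and by −0.81 and −0.57 in ethanol, differences of 1.52 (unadjusted p = 0.00828) and 1.51 (unadjusted p = 0.0453). CUT314 changed by −0.73 in rapamycin and 1.03 in ethanol, a difference of −1.77 (unadjusted p = 0.00419).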

How the results depend on the processing

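The count of features that rose (802) was 441 without the detection filter, 355 with a mean of at least 10 FPKM, 1430 with equal library medians, 465 with 1 and 2 min as early and 1264 with limma-voom. The count that fell (2128) was 915 with a mean of at least 10 FPKM and 1407 with equal library medians. Over the runs that left out a culture or a library, the counts were 145 to 888 and 898 to 2225. The lowest values were without time-course 1 (145 and 898), and leaving out the 0 min library of time-course 2 gave 457 rises. Without the replicate block of late and early libraries in one culture 635 rose and 1830 fell, all of them also called with it, and 4 of 160 named features lost their call. For the difference between drugs, the replicate block that pairs time-course numbers (which mark no shared culture) gave 2 and 1 features in place of 0 and 0, and leaving out a culture gave 0 to 166 and 0 to 49, with 166 and 49 without ethanol time-course 2, where the 1 ethanol culture left is assumed to vary as the rapamycin cultures do. Changes that turned sign were those of snR7-S (0.10), NRD1 (0.033) and ACT1 (0.28) with equal library medians, ACT1 with equal coding sums (0.11) and limma-voom (0.065), and STI1 with 40 min as late (−0.082), and none of these had passed the test. Of 160 named features tested, 52 missed the threshold in time-course 2 alone, 9 in time-course 1 alone and 34 without the detection filter. In the fits to 1 time-course the single libraries were the observations, so the spread between time-points set the p-values. The causes were not tested. Of the 33 list medians, 8 changed sign with equal library medians. Depth limits genes that fell to a few reads, and 5489 features could not be tested.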

Other observations

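Autophagy genes moved in both directions. Of 21 tested, 5 rose and 2 fell (median 0.32). ATG8, whose product coats the autophagosome membrane, rose by 1.18 ± 0.29 (28.1 to 41.5 FPKM late and 8.21 to 32.2 FPKM early, which overlap), and ATG3, the enzyme that conjugates Atg8 to lipid, by 1.25 ± 0.27 (11.3 to 16.5 FPKM late and 1.82 to 8.98 FPKM early). ATG27, a membrane protein of Atg9 vesicles, fell by 1.60 (SE 0.31), and ATG23, a partner of Atg9, by 1.09 (SE 0.27). ATG3, ATG8 and ATG23 missed the threshold in time-course 2 alone.

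Features left out of the test for a 0 in some library include very short annotations, for which 1 read gives a large FPKM. CUT_CGR008CTs2 (115 bases, within STF2) had 321 to 496 FPKM late and 0 to 262 FPKM early, and YPR160W-A (81 bases, within GPH1) had 172 to 438 FPKM late and 0 to 186 FPKM early. Both host genes rose. CUT_CIL109CD1 has 9 bases, and its early libraries were listed at 0 to 469.8 FPKM.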
